A study of Mus musculus with 40 samples.

Results

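Ear skin of wild-type C57BL/6J mice was profiled by RNA sequencing after topical β-alanine or its vehicle. The members are the 8 skin libraries whose table headings read PBS or β-alanine, out of 40 libraries in the study. PBS was applied to the ears of 4 of them, and 50 mM β-alanine once daily for 2 days to the other 4. Age and sex are not in the labels, and nothing in them says whether each library came from a separate mouse, so p-values measure the spread between these libraries, which may be partly technical. The tissue label is Epidermal but the stated design is RNA from the whole ear: keratins of the epidermis (Krt14 at 2595 FPKM ± 157, SD, n = 4, in PBS skin) and skeletal muscle genes (Pvalb at 267 FPKM ± 64.1) were both high, so more than epidermis was present. Other libraries serve as references. Whole ear skin came from MrgprdCre mice (the Mrgprdtm1.1(cre)And allele on a B6.129S1 background) and from MrgprdDTR mice, which carry Gt(ROSA)26Sortm1(HBEGF)Awai as well and in which Cre from the Mrgprd gene switches on the diphtheria toxin receptor. Both carry acetone and olive oil as treatment, the DTR mice also diphtheria toxin, and the design text gives toxin to the Cre mice too. Mast cells were sorted from the same 2 lines.

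MRGPRD is a G protein-coupled receptor of nonpeptidergic sensory neurons whose endings reach the outer epidermis, and β-alanine is its best known agonist. Mast cells of connective tissue sit in the dermis close to such nerves. They store proteases (chymases, tryptases, carboxypeptidase A3 and cathepsin G), histamine and heparin in granules bound to the proteoglycan serglycin, and carry the stem cell factor receptor KIT, the high-affinity IgE receptor and MRGPRB2. The comparison addresses what the ear transcriptome, and its mast cell genes above all, looked like after the neurons' agonist was applied.

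The sequences shown here lie upstream of the granule protease genes that fell with at least 5 FPKM in PBS skin, beside those of Kit and Mrgprb2, mast cell receptors that did not pass the test. Each run is the 250 bases before the gene's start, 5′ to 3′ on the gene's strand, from RefSeq on GRCm38.p6, and 6 of 8 genes wanted had an entry (Mcpt2 and Tpsb2 had none). Capitals mark the GATA factor letters AGATAA or TGATAA and the E-box letters CATGTG or CACGTG, searched on both strands. The windows are chr14:56062311-56062560, chr14:55944676-55944925, chr14:56102575-56102824 and chr3:20242182-20242431 on the minus strand, chr5:75574737-75574986 on the plus strand (the first of its 2 listed starts) and chr7:48558087-48558336 on the minus strand.
Mcpt4: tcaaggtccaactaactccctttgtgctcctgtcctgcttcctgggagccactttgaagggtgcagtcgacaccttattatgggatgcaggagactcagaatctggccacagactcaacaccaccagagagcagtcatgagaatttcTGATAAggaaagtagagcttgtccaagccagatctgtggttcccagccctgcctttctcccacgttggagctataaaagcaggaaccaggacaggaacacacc
Cma1: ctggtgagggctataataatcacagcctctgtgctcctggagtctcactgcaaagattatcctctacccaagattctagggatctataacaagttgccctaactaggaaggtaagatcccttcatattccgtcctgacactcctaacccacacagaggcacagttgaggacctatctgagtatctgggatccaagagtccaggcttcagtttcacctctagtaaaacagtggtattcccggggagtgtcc
Ctsg: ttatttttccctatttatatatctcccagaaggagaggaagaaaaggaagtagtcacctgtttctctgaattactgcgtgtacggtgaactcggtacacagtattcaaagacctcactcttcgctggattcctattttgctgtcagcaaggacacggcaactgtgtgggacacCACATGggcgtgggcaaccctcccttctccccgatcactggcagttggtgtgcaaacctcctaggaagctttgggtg
Cpa3: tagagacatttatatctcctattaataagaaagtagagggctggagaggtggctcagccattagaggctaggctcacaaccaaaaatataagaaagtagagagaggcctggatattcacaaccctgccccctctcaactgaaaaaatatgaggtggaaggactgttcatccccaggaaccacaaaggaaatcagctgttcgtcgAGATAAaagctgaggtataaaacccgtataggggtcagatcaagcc
Kit: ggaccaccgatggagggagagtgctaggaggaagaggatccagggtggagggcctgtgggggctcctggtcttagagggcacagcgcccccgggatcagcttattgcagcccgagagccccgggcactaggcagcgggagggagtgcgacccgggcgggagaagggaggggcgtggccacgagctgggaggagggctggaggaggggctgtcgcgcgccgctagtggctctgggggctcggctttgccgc
Mrgprb2: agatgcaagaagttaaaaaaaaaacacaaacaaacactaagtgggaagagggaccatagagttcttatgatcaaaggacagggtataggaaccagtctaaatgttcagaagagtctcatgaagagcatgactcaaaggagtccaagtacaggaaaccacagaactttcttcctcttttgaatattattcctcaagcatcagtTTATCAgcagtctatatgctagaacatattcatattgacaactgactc
One GATA match was found in Mcpt4, Cpa3 and Mrgprb2 each, starting 103, 46 and 48 bases before the gene's start, and 1 E-box match in Ctsg. Cma1 and Kit held neither motif in these windows. Of 32851 such windows, 16.6% held a GATA match and 17.6% an E-box match. The GATA letters thus occurred upstream of 2 genes that fell and of Mrgprb2, which did not pass the test.

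The mast cell granule proteases that could be tested fell to between 0.29% (Mcpt2) and 1.52% (Ctsg) of their PBS means, whereas Kit, Mrgprb2 and most other mast cell genes tested did not pass. Levels are FPKM (read fragments scaled by transcript length and library size), and changes are differences of log2(FPKM + 1), β-alanine minus PBS. The test was limma over the 12709 genes that reached 1 FPKM in 4 or more of the 8 libraries, with Benjamini-Hochberg adjustment, and a gene passed at an adjusted p under 0.05. Of these genes 27 passed (0.212%): 25 fell (0.197%) and 2 rose (0.0157%). The median log2 change of all genes tested was -0.044. Fewer mast cells and less RNA per mast cell cannot be told apart in whole tissue.

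**Figure D1:**
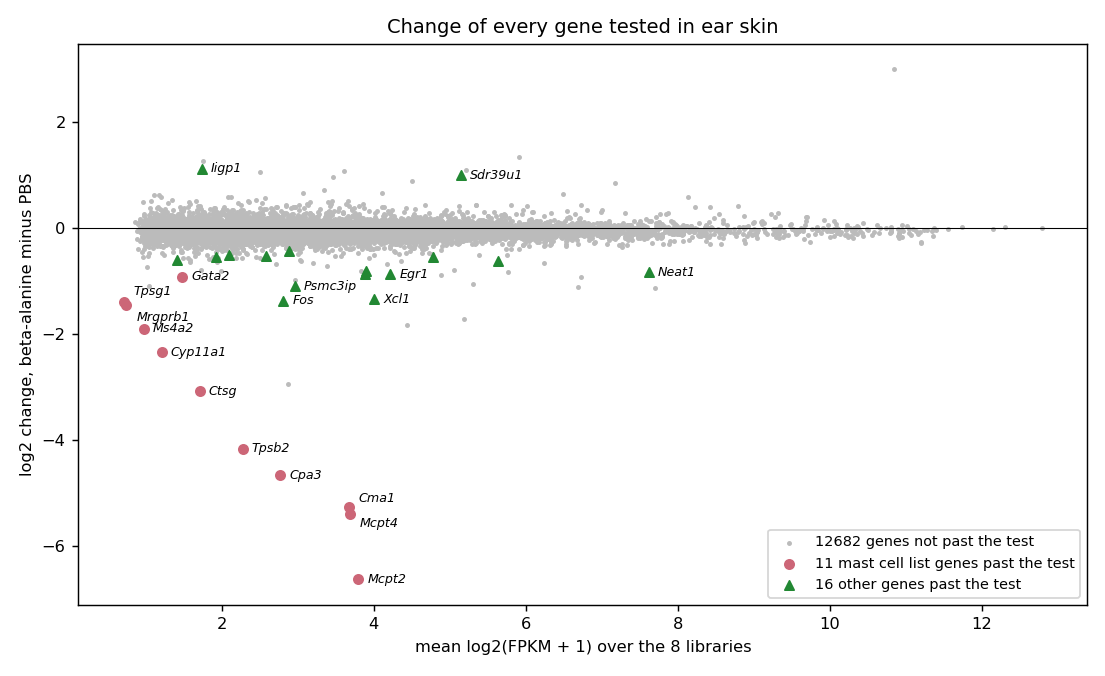
Each point is 1 of the genes tested, with its mean log2(FPKM + 1) over the 8 libraries on the x axis and its log2 change on the y axis; circles are mast cell list genes and triangles other genes past the test (names of Serpinb1a, Clec10a and genes with smaller changes are left out). Mcpt2, Mcpt4, Cma1, Cpa3, Tpsb2 and Ctsg lie between -6.63 and -3.08, below all other genes past the test. Krt2, the grey point near 3, is listed at 0 in PBS library 3.

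The mast cell genes were listed from general knowledge, but with earlier results of these data known. The 4 groups hold 73 genes, of which 71 were in the table and 54 were tested. Among those tested, 11 fell, 43 did not pass and 0 rose. Some of the 43, such as Ptgs1 and Mrgprb3, were lower in sorted Cre mast cells than in Cre skin, so their skin level says little of mast cells. Of the 43, 36 had a lower point value in β-alanine skin, and 12 of these had an unadjusted p under 0.05. Values of all genes leaned the same way: 8.65% of the genes tested were lower at an unadjusted p under 0.05 and 1.16% higher. Over the 71 genes, all 4 β-alanine libraries lay below all 4 PBS libraries for 31, including 9 of the 17 untested. Such separation occurred downward for 5.56% of all genes tested, upward for 0.866%, and downward for 4.49% of all genes with any value above 0.

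Chymases gave the highest protease levels in PBS skin. Mcpt2 (mouse mast cell protease 2, a chymase best known from mucosal mast cells) stood at 144, 108, 160 and 142 FPKM in PBS libraries 1 to 4 and at 0.486, 0.473, 0.330 and 0.315 FPKM in the β-alanine libraries. No value of either group came near the other, and 0.29% of the PBS mean was left. The log2 change was -6.63 (SE 0.11, adjusted p = 6.32e-10). Mcpt4, the main chymase of connective tissue mast cells, was at 77.7, 81.9, 94.4 and 78.8 FPKM with PBS and at 1.95, 2.09, 0.403 and 0.220 FPKM with β-alanine (-5.40, SE 0.28, adjusted p = 5.86e-06). Cma1, which encodes mast cell protease 5, was at 75.7, 71.1, 89.6 and 78.5 FPKM with PBS and at 1.46, 1.77, 0.678 and 0.573 FPKM with β-alanine (-5.27, SE 0.17, adjusted p = 1.17e-07). For both genes β-alanine libraries 1 and 2 held more than libraries 3 and 4, and the split was wider for Mcpt4.

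Cpa3, Tpsb2 and Ctsg were lower than the chymases in PBS skin and kept like shares of it (1.1%, 0.771% and 1.52%, against 1.4% of Mcpt4 and 1.42% of Cma1). The order of their log2 changes depends on the added 1: with 0.1 added they were -6.49 for Mcpt4, -6.44 for Tpsb2, -6.29 for Cpa3 and -6.14 for Cma1. Cpa3, carboxypeptidase A3, was at 30.7, 31.8, 39.4 and 32.4 FPKM in PBS skin and at 0.619, 0.502, 0.153 and 0.206 FPKM in β-alanine skin (-4.67, SE 0.12, adjusted p = 1.82e-08). Its residue showed the same order, with libraries 1 and 2 above 3 and 4. Tpsb2, a granule tryptase, was at 20.5, 17.8, 21.6 and 18.2 FPKM with PBS and at 0.249, 0.0712, 0.263 and 0.0195 FPKM with β-alanine (-4.16, SE 0.096, adjusted p = 7.49e-09). Here libraries 1 and 3 were the higher ones. Ctsg, cathepsin G, fell from 8.60 FPKM ± 1.42 to 0.131 ± 0.111 (SD, n = 4 each), a log2 change of -3.08 (SE 0.12, adjusted p = 3.51e-07). The membrane-anchored tryptase gene Tpsg1 fell from 1.66 FPKM ± 0.0758 and was listed at 0 in 3 of 4 β-alanine libraries (adjusted p = 5.86e-06).

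The whole protease list has 12 genes. All 7 tested fell, but 5 of the 7 had at least 1 FPKM in PBS skin alone, so a gene that entered the test that way had to differ. Over all 12, the median log2 change was -2.23, against -0.018 over all genes with a value above 0. The other 5 were low in both groups: Tpsab1, a tryptase, ranged from 0.108 to 1.05 FPKM in PBS skin and was listed at 0 in all 4 β-alanine libraries. Cma2, a chymase-like gene of the same cluster, went the other way in mean (0.412 FPKM ± 0.0876 to 1.35 ± 1.52), with library 2 at 3.57 FPKM and library 1 at 0.295. Gzmb, granzyme B, was at 0.380 and 0.282 FPKM, and Mcpt1 and Mcpt9 were near 0. The 12 levels summed to 365 FPKM ± 40.1 in PBS skin and 5 ± 2.96 in β-alanine skin.

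**Figure D2:**
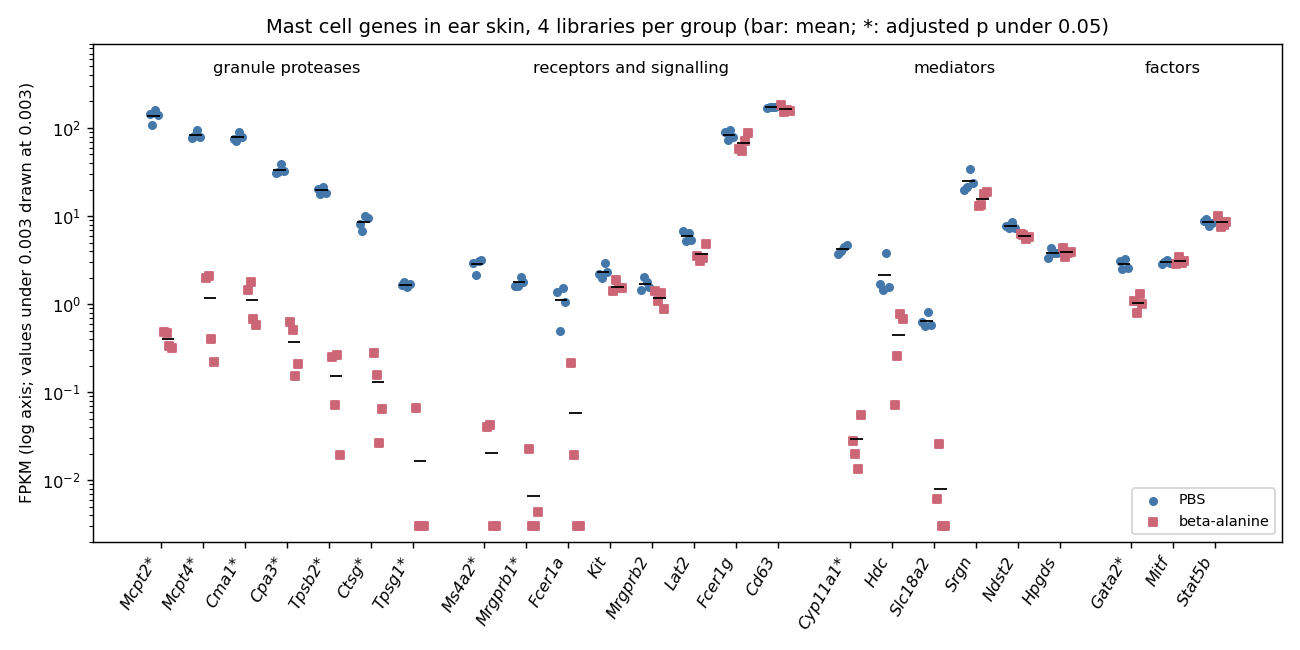
FPKM of 24 mast cell genes on a log axis, with 4 PBS libraries as circles and 4 β-alanine libraries as squares; bars are means and asterisks mark genes past the test. The protease groups are separated by far more than their spread, while those of Fcer1g and Cd63 lie close together. Those of Kit and Mrgprb2 are lower with β-alanine and separate by a narrow margin.

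Of the receptor and signalling genes, 29 were in the table and 22 were tested, and 2 fell. Ms4a2, the β chain of the IgE receptor, was at 2.95, 2.14, 3.08 and 3.17 FPKM with PBS and at 0.0399, 0.0421, 0 and 0 FPKM with β-alanine (-1.90, SE 0.10, adjusted p = 5.86e-06). Mrgprb1, a relative of Mrgprb2, fell from 1.76 FPKM ± 0.202 to 0.00667 ± 0.0107 (-1.45, SE 0.081, adjusted p = 8.12e-06). Both entered the test through PBS skin alone. Fcer1a, the IgE-binding chain, was too low to be tested, at 0.489 to 1.51 FPKM with PBS and 0 to 0.214 FPKM with β-alanine. The untested Cd200r3, an activating receptor of mast cells and basophils, was at 0.759 FPKM ± 0.185 and 0.0231 ± 0.0187. Mrgprb8 and the histamine receptor gene Hrh4 were low in PBS skin and listed at 0 in all 4 β-alanine libraries.

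Kit and Mrgprb2 did not pass the test. Kit was at 2.20, 1.95, 2.93 and 2.29 FPKM with PBS and at 1.41, 1.89, 1.53 and 1.51 FPKM with β-alanine. The groups did not overlap, by a narrow margin, and 67.6% of the mean was left (-0.37, 95% interval -0.59 to -0.14, adjusted p = 0.306). Mrgprb2, the receptor for cationic secretagogues, was at 1.44, 2.03, 1.79 and 1.55 FPKM with PBS and at 1.40, 1.09, 1.33 and 0.870 FPKM with β-alanine. Again the groups only just separated, with 68.9% left (-0.32, 95% interval -0.55 to -0.08, adjusted p = 0.383). Skin melanocytes also make KIT, and the melanocyte list had no gene past the test among 8 tested; its summed level was 38.2 to 67.1 FPKM with PBS and 59.4 to 91.1 FPKM with β-alanine, and its part in the Kit value was not tested.

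The signalling genes shared with other leukocytes also did not pass. Fcer1g, the common γ chain, was at 83.8 FPKM ± 10.2 and 67.4 ± 15, with overlapping groups (-0.33, adjusted p = 0.509). Cd63, a tetraspanin of granule membranes found in many cells, was at 172 FPKM ± 2.18 and 163 ± 12.1. Lat2, an adaptor of IgE receptor signalling, was at 5.89 FPKM ± 0.747 and 3.71 ± 0.782, without overlap (-0.56, SE 0.12, adjusted p = 0.153). Adora3, the adenosine A3 receptor gene, kept 69.1% of its mean (adjusted p = 0.153), and the kinase genes Lyn, Syk and Btk kept 84.1%, 91.9% and 72.8%. Mrgprb3 had a higher point value (5.40 FPKM ± 1.77 to 7.48 ± 1.76, adjusted p = 0.53), but was only 0.0165-fold in sorted Cre mast cells over Cre skin. With all 29 members counted, the median log2 change was -0.20.

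Among genes of mediator synthesis and storage, 1 of 16 tested fell. Cyp11a1, the enzyme that turns cholesterol into pregnenolone, was at 3.69, 4.05, 4.51 and 4.71 FPKM with PBS and at 0.0282, 0.0199, 0.0135 and 0.0547 FPKM with β-alanine, so that 0.686% was left (-2.34, SE 0.082, adjusted p = 1.82e-07). Cyp11a1 and Hdc were the 2 genes of this list that entered the test through PBS skin alone. Hdc, histidine decarboxylase, which makes histamine, was at 1.68, 1.46, 3.80 and 1.57 FPKM with PBS and at 0.0715, 0.258, 0.781 and 0.686 FPKM with β-alanine. The groups did not overlap and 21.1% was left, but the spread was wide (-1.08, SE 0.23, adjusted p = 0.149). Slc18a2, the transporter that loads histamine and serotonin into granules, was too low to be tested (0.648 FPKM ± 0.111 and 0.00803 ± 0.0123). Srgn, serglycin, was at 24.8 FPKM ± 6.64 and 15.7 ± 2.83 (-0.61, SE 0.17, adjusted p = 0.312), and Ndst2, which sulfates heparin, at 7.72 ± 0.558 and 5.89 ± 0.346 (-0.34, SE 0.069, adjusted p = 0.124). The eicosanoid enzymes Hpgds, Ptgs1 and Alox5 kept 101%, 100% and 88.5% of their means. In sorted Cre mast cells over Cre skin they were 3.62-fold, 0.00561-fold and 6.51-fold, so the skin level of Ptgs1 says little of mast cells. Over all 19 genes the median log2 change was -0.20.

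Of the transcription factors, 1 of 9 tested fell. Gata2, which mast cell differentiation requires, was at 3.12, 2.49, 3.24 and 2.54 FPKM with PBS and at 1.08, 0.784, 1.30 and 0.997 FPKM with β-alanine. The groups were well apart, and 36.5% was left (-0.92, SE 0.10, adjusted p = 0.00358). Mitf, also used by melanocytes, was at 2.99 FPKM ± 0.154 and 3.05 ± 0.250, and Stat5a, Stat5b, Runx1, Zeb2 and Meis2 had adjusted p-values from 0.761 to 0.975. In sorted Cre mast cells over Cre skin, Mitf was 1.29-fold, Stat5a 0.902-fold, Stat5b 1.32-fold, Zeb2 0.795-fold and Meis2 0.812-fold. The skin levels of these genes thus say little of mast cells, and Runx1 was 5.35-fold. Gata1 was too low to be tested (0.199 and 0.0452 FPKM). Over the 11 factors in the table the median log2 change was -0.08.

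The other proteases were also set against Cpa3 within each library, as log2 ratios with 0.1 FPKM added to both genes, by an exact two-sided permutation test over the 8 libraries (smallest possible p 0.0286; adjusted over 53 mast cell genes). The ratio of Mcpt2 to Cpa3 changed by -1.82 (exact permutation, adjusted p = 0.0303), so Mcpt2 moved further than Cpa3. Mcpt4 (-0.20), Tpsb2 (-0.15) and Cma1 (0.15) did not differ from Cpa3 past the test, with adjusted p-values of 0.728, 0.8 and 0.445 in the same exact permutation test. Tpsb2 was at 0.0712 and 0.0195 FPKM in β-alanine libraries 2 and 4, below the 0.1 added, so the added value weighs on its -0.15. With nothing added, Tpsb2 over Cpa3 ran from 0.55 to 0.67 in PBS libraries and from 0.09 to 1.72 in β-alanine libraries. For any gene that changed little, a higher ratio restates the fall of Cpa3, so those ratios are not given. For Tpsg1, Ms4a2, Mrgprb1 and Cyp11a1, all near 0 in β-alanine skin, the added value sets the ratio. The ratio of Ctsg to Cpa3 changed by 0.95 (exact permutation, adjusted p = 0.0303). Ctsg was at 0.275, 0.158, 0.0264 and 0.0649 FPKM in β-alanine libraries 1 to 4, the last 2 below the 0.1 added. The added value thus weighs heavily on this ratio, which cannot show whether Ctsg moved less far than Cpa3.

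What was left was also described by how far a gene is concentrated in mast cells. Concentration was measured in other libraries of the study, as the level in mast cells sorted from Cre mice over that in whole skin of Cre mice. Over 65 mast cell list genes with at least 0.2 FPKM in PBS skin, Spearman's rho between this fold and the percent left was -0.81, a description across genes, which are not independent and share the same libraries. Admitting genes by a mean of at least 0.2 FPKM over the 8 libraries, chosen after seeing the data, also gave 65 genes and rho -0.81. Of those 65, 11 again reached 0.2 FPKM in PBS skin alone, so this rule gave no separate support. The 20 genes concentrated at least 50-fold kept a median of 1.47%, with Gzmb highest at 74.2%, but 11 of them reached 0.2 FPKM in PBS skin alone and could only show loss. The 12 genes at 10-fold to 50-fold, Kit (19.3-fold) and Mrgprb2 (25.4-fold) among them, kept a median of 76.6%, and the 33 genes below 10-fold kept 92.7%. Srgn (63.3-fold) and Lat2 (68.4-fold) kept 63.2% and 63%, whereas Mcpt4, at 62.8-fold, kept 1.4%, so genes of like concentration had values far apart; that difference was not tested. Mcpt2 was at 0.00777 FPKM in Cre skin, so its fold of 7.99 says little.

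**Figure D3:**
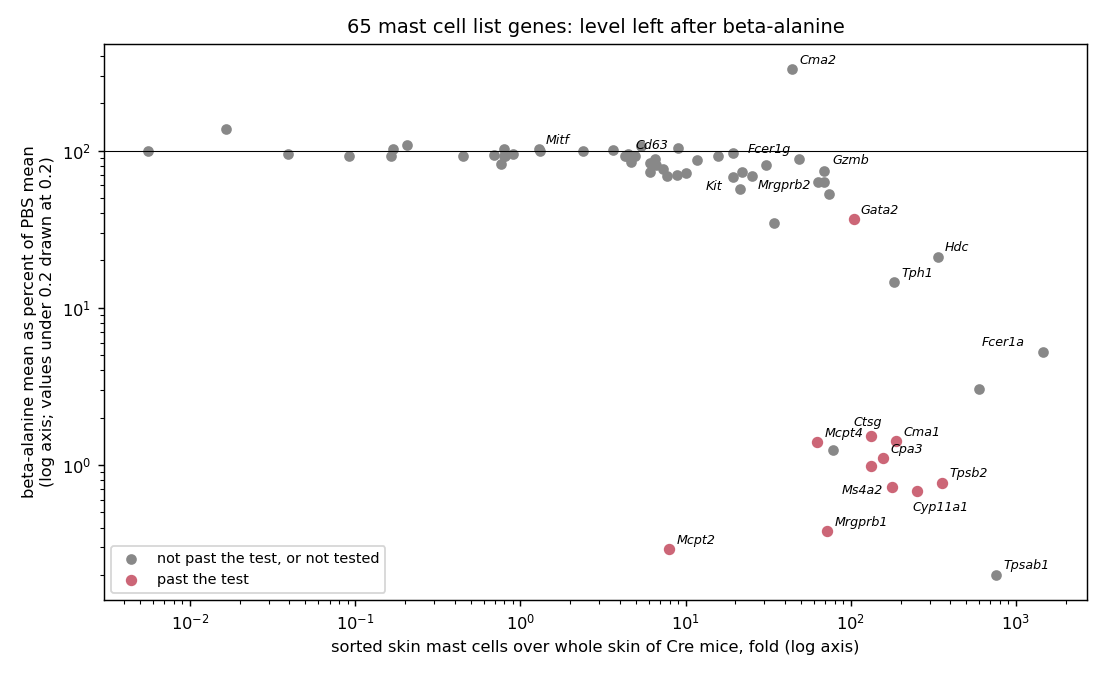
Each point is 1 of 65 mast cell list genes; the x axis is the fold of sorted mast cells over whole skin in Cre mice and the y axis the β-alanine mean as percent of the PBS mean, both on log axes. Genes below 10-fold lie between 69.1 and 138 percent except Mcpt2, and genes above 50-fold spread from 74.2 percent down to 0.

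Over all genes the fold was taken from the lowest sorted library of Cre or DTR mice over the Cre skin mean plus 0.05 FPKM. Among 2553 genes with at least 5 FPKM in every sorted library and 0.2 FPKM in PBS skin (genes of the sex chromosomes left out, since Cre skin came from females and PBS skin from males by Xist and Y-linked genes), those under 1-fold kept a median of 96.5% (2102 genes). At 1-fold to 5-fold, 5-fold to 20-fold and 20-fold to 50-fold the medians were 92.5% (297 genes), 82.5% (95) and 62.5% (29). The 30 genes at 50-fold or more kept 18.1%, and in 22 of them (73.3%) all 4 β-alanine libraries lay below all 4 PBS libraries, against 6.37% of genes under 1-fold. Across these genes rho was -0.30. These counts include mast cell list genes and genes admitted through PBS skin. With genes admitted by their mean over the 8 libraries, 28 genes were at 50-fold or more: the 14 on the mast cell lists kept a median of 1.17%, and the other 14 kept 48.7%, from 12.9% to 86.3%. This rule does not remove the selection: 10 of the 14 list genes and 4 of the other 14 reached 0.2 FPKM in PBS skin alone. Those genes could only show loss.

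Mcpt2, Mcpt4, Cma1 and Ctsg lie in the chymase cluster of chromosome 14 (mm9, as deposited: Cma1 at chr14:56560287-56563498, Mcpt2 at chr14:56660959-56663471, Mcpt4 at chr14:56678580-56681147 and Ctsg at chr14:56718717-56721411). Cpa3 (chr3:20115514-20142080) and Tpsb2 (chr17:25503277-25505037) lie elsewhere. Sdr39u1, a short-chain dehydrogenase gene whose end is 41218 bases from Cma1, was at 24.2, 22.9, 24.6 and 24.2 FPKM with PBS and at 60.2, 43.4, 44.4 and 49.9 FPKM with β-alanine. Every β-alanine library was above every PBS library (log2 change 1.00, SE 0.097, adjusted p = 0.0011). Of the neighbours listed around the cluster, 14 were tested and Sdr39u1 alone passed. The adjoining Khnyn was at 4.84 FPKM ± 0.267 and 4.45 ± 0.335 (adjusted p = 0.673).

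Iigp1, an interferon-inducible GTPase, was the other gene that rose. It was at 0.991, 1.34, 1.23 and 1.55 FPKM with PBS and at 4.19, 2.65, 3.40 and 6.08 FPKM with β-alanine, without overlap (1.12, SE 0.18, adjusted p = 0.0433). None of 12 tested interferon-stimulated list genes passed, with Gbp2 nearest at 3.89 FPKM ± 0.548 and 6.60 ± 2.86 (adjusted p = 0.471). That list held neither Iigp1 nor Gbp4, a guanylate-binding protein gene. Gbp4 was higher in β-alanine skin without overlap, just short of the threshold (values under Other observations). The call of Iigp1 was lost when any of 6 libraries was left out, with adjusted p-values of up to 0.176.

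Outside the mast cell lists 14 genes fell. Fos, an immediate early transcription factor, was at 8.45, 10.3, 11.6 and 10.9 FPKM with PBS and at 3.10, 3.92, 3.44 and 3.07 FPKM with β-alanine (-1.36, SE 0.10, adjusted p = 0.000104). Egr1, of the same class, was at 23.8, 26.7, 22.6 and 23.8 FPKM and at 12.8, 14.9, 11.8 and 11.8 FPKM (-0.87, SE 0.084, adjusted p = 0.0011). Both groups of values were tight and far apart. Of 31 tested immediate early and feedback genes these 2 fell, and 14, those 2 included, had a lower value at an unadjusted p under 0.05 (8.65% of all genes tested did), among them Ier3 (adjusted p = 0.0812), Zfp36 (0.111) and Fosb (0.194). The list's median log2 change was -0.19. In sorted Cre mast cells over Cre skin, Fos was 48.4-fold and Egr1 10.3-fold. These folds set sorted cells against whole tissue, and which cells the skin RNA of the 2 genes came from was not tested.

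Xcl1, a chemokine of T and natural killer cells that draws XCR1-positive dendritic cells, was at 27, 29.1, 20.3 and 23.1 FPKM with PBS and at 12.8, 8.45, 7.05 and 8.92 FPKM with β-alanine. The groups did not overlap (-1.34, SE 0.16, adjusted p = 0.00577). It was not concentrated in sorted mast cells (0.0063-fold), and none of 12 tested T and innate lymphoid cell genes passed: Cd3e was at 7.28 FPKM ± 0.524 and 7.19 ± 0.638. Of the 9 tested cytokines that mast cells can make, Xcl1 alone fell. Ccl7 was at 7.60 FPKM ± 2.59 and 4.39 ± 1.59 and Tnf at 1.41 ± 0.320 and 0.977 ± 0.342, with overlap in both.

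Serpinb1a, an inhibitor of serine proteases such as cathepsin G, fell from 19 FPKM ± 2.38 to 10 ± 1.80 (-0.86, SE 0.13, adjusted p = 0.0327), and it was 79.6-fold higher in sorted mast cells than in Cre skin. Rgs1 and Rgs18, regulators of G protein signalling in blood cells, kept 50.6% and 60.1% (adjusted p = 0.0173 and 0.0157) and were 527-fold and 27.9-fold concentrated. Clec10a, a lectin of macrophages and dendritic cells, fell from 18.8 FPKM ± 1.52 to 10.3 ± 1.29 (-0.81, SE 0.092, adjusted p = 0.0037), while none of 15 tested macrophage genes passed. Neat1, the scaffold RNA of nuclear paraspeckles, fell from 262 FPKM ± 21.9 to 147 ± 14.2 (adjusted p = 0.00234). Bcl6, a transcriptional repressor, fell from 32.3 FPKM ± 1.15 to 21.8 ± 1.33 (adjusted p = 0.0037). Clk1 and Srek1, both of RNA splicing, and Zfp280d and Rbm12b2 fell by smaller amounts (log2 changes of -0.62, -0.43, -0.53 and -0.51). The calls of Serpinb1a, Rgs1, Rgs18, Clk1, Srek1, Zfp280d and Rbm12b2 were each lost under 4 or more of the alternatives run, leaving out single libraries among them, with adjusted p-values of up to 0.149, 0.188, 0.121, 0.109, 0.254, 0.176 and 0.121. Those of Clec10a, Neat1 and Bcl6 were kept.

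Psmc3ip, a partner of the meiotic recombinase, was at 9.59, 9.85, 10.9 and 11.2 FPKM with PBS and at 4.00, 4.60, 4.28 and 4.50 FPKM with β-alanine (-1.09, SE 0.071, adjusted p = 3.59e-05). It was also lower in DTR than in Cre skin (4.68 and 11.3 FPKM), and the 2 differences did not differ past the interaction test (0.03, adjusted p = 0.867). Of 8 tested genes listed as possible markers of mouse stock, Psmc3ip alone passed.

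**Figure D4:**
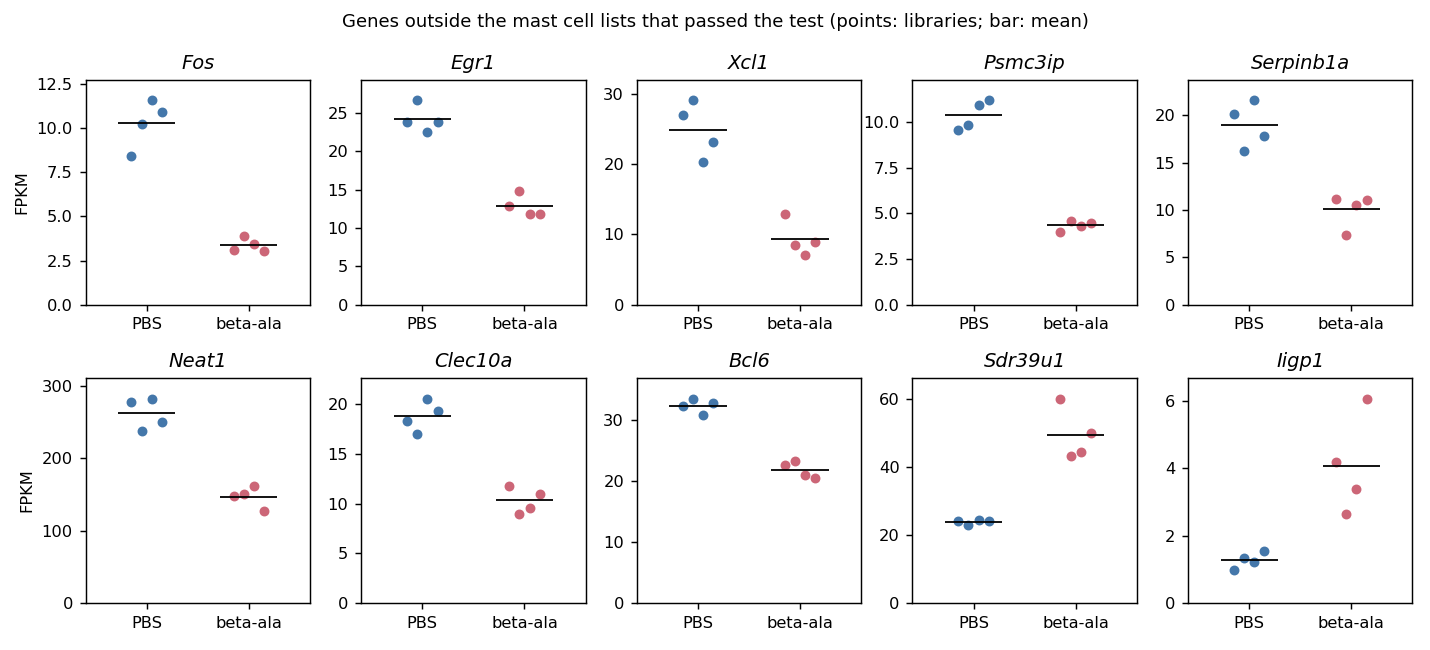
FPKM by library of 10 genes outside the mast cell lists that passed the test, on linear axes from 0, with the mean as a bar. Sdr39u1 and Iigp1 are higher in all 4 β-alanine libraries, and the other 8 are lower in all 4.

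For the lists of other ear tissue named next, median log2 changes ran from -0.12 (Langerhans and dendritic cells) to 0.28 (skeletal muscle), with 0.14 for adipocytes. No member passed among the tested genes of basal keratinocytes (12), differentiated keratinocytes (17), fibroblasts (15), endothelium (14), skeletal muscle (20), adipocytes (15), Langerhans and dendritic cells (9), Schwann cells and sensory nerve (13), heat shock (16) or the clock (16). Below that range lay stress keratins and alarmins (median -0.25, 20 tested) and neutrophil and eosinophil genes (median -0.38, 4 tested). No member of either passed, and the summed levels of both lists overlapped between the groups. Krt14 was at 2595 FPKM ± 157 and 2146 ± 223 (adjusted p = 0.372), and Cd207, the Langerhans cell lectin, at 17.9 ± 1.05 and 15.9 ± 1.36. Mrgprd itself, whose RNA sits mostly in ganglion cell bodies, was near 0 in both groups (0.00123 and 0.00956 FPKM). None of 14 genes for β-alanine and taurine handling passed: the taurine and β-alanine transporter gene Slc6a6 was at 116 FPKM ± 15.2 and 117 ± 7.84. The glutamate list (8 tested) had none past the test either, and Grik2 was at 0.0936 and 0.0847 FPKM.

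Red blood cell and cell cycle genes had lower values without passing. Hbb-b2, a β-globin, was at 72.5 FPKM ± 13 and 40.2 ± 7.93 without overlap (adjusted p = 0.0886), and Alas2, of erythroid heme synthesis, at 3.46 ± 0.281 and 2.26 ± 0.302 (adjusted p = 0.0894). The summed red cell list was 345 to 498 FPKM with PBS and 170 to 277 FPKM with β-alanine, and its part in the other results was not tested. Of 30 cell cycle genes, 12 had a lower value at an unadjusted p under 0.05, against 8.65% of all genes tested, and the median log2 change was -0.21, with E2f1 nearest the threshold (4.60 FPKM ± 0.402 and 3.22 ± 0.185, adjusted p = 0.0737). Melanocyte genes leaned the other way, with a median of 0.34 and Dct, a melanin enzyme, at 12.9 FPKM ± 2.14 and 21.1 ± 4.25 (adjusted p = 0.153). The basophil proteases Mcpt8 and Prss34 were near 0 or listed at 0 in both groups.

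The change under β-alanine was set against that after MrgprD neuron ablation by an interaction term over the 16 skin libraries. It passed for 866 of 12995 genes (6.66%; 5.39% with a negative difference), and for 24 of 55 mast cell list genes in that fit. The 2 experiments differ in strain, vehicle, duration and, by Xist and Y-linked genes, sex, so these cannot be told apart from the treatment. Cpa3 was higher after ablation (36.7 FPKM, against 12 FPKM without it), a log2 change of 1.54, against -4.67 under β-alanine, and the difference was -6.21 (adjusted p = 1.30e-13). Kit (2.41 FPKM in Cre and 3.44 in DTR skin) and Mrgprb2 (1.68 and 2.56) also differed, by -0.75 (adjusted p = 0.00586) and -0.73 (adjusted p = 0.00949). Mcpt2 stood apart from the other proteases, near 0 in Cre skin (0.00777 FPKM) and DTR skin (0.00853 FPKM) alike, whereas Mcpt4 was at 30.6 and 102 FPKM there. Mcpt2 was thus high only in the PBS group of the 4 skin groups. Without Mcpt2 the protease sum was 227 FPKM ± 21.2 in PBS, 4.59 ± 2.88 in β-alanine, 72.7 ± 8.25 in Cre and 213 ± 18.6 in DTR skin.

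**Figure D5:**
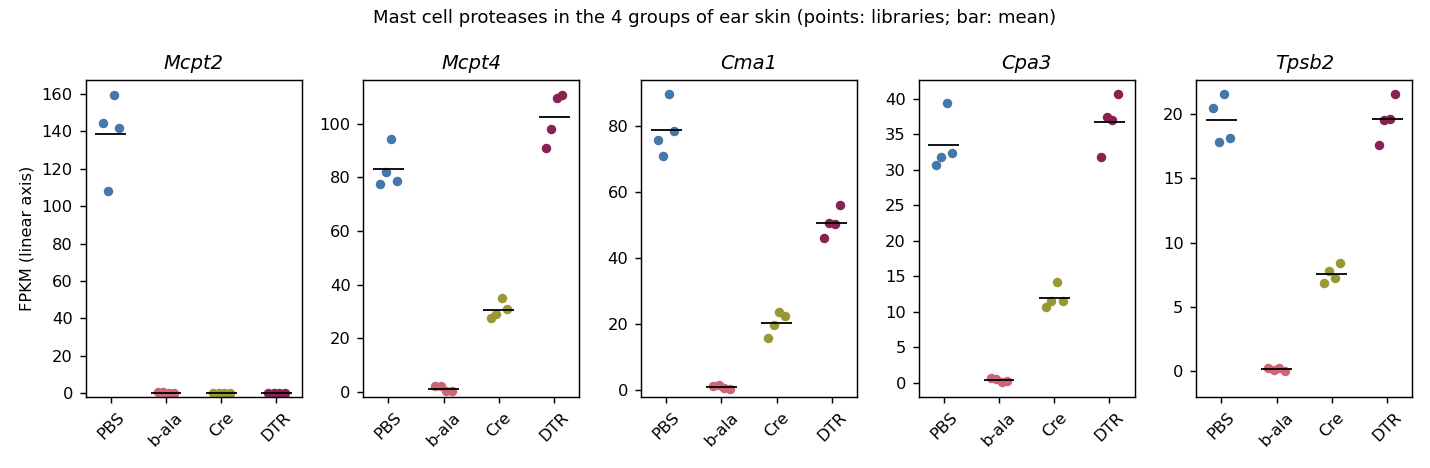
FPKM by library of 5 proteases in PBS, β-alanine (b-ala), Cre and DTR ear skin on linear axes, with the mean as a bar. β-alanine skin is lowest for Mcpt4, Cma1, Cpa3 and Tpsb2, and Mcpt2 is seen in PBS skin alone.

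The libraries were otherwise alike. Totals ran from 466097 to 508485 FPKM and 12495 to 12802 genes reached 1 FPKM. Correlations of log2 levels were 0.9839 to 0.9928 within groups and 0.9788 to 0.9925 between them. Of 8 tested sex-linked genes, none passed between PBS and β-alanine skin. Rn45s, the ribosomal RNA precursor, was at 2258 FPKM in β-alanine library 4 and at 172 to 322 FPKM in the other 7. Without β-alanine library 4, 23 genes passed, 12 of them mast cell list genes. An exact 0 need not mean absence: Krt2, an epidermal keratin, was listed at 0 in PBS library 3 and at 4456 to 6031 FPKM in the others. Of the 27 genes, 14 were tested and kept their call under all 18 alternatives, 6 mast cell genes among them. Cyp11a1, Ms4a2, Mrgprb1, Tpsg1 and Gata2 kept theirs under 17, and the filter of 5 FPKM left them untested.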

How the data were processed

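RNA from ear skin was sequenced in 4 PBS and 4 β-alanine libraries. The authors deposited 1 table of FPKM values, made with STAR and Cufflinks on mm9, per the submitters' processing notes (versions not given). The table's header names no unit, and FPKM was inferred from the tools and the values; annotation and any scaling between libraries are not given in the sources used here. No counts were used, so depth is unknown and limits on low values cannot be given; ratios of values under 0.1 FPKM within a group fell within 0.03 log2 of whole-number ratios (up to 6) for 60.8% to 65.8% of genes, and the relative depths this gave were 1.03 to 1.41.

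Values were taken as log2(FPKM + 1) and tested with limma 3.58.1 in R 4.3.3 (mean-variance trend, two-sided, Benjamini-Hochberg over the 12709 genes that reached 1 FPKM in 4 or more of 8 libraries). An added 1 understates changes of low genes. The interaction was fitted over 16 skin libraries. Python 3.11.15, numpy 2.4.6, pandas 2.3.3, scipy 1.17.1 and matplotlib 3.10.9 did the rest. The procedure was tested on simulated data. Named were all genes past the test except predicted genes and small RNAs, mast cell list members, and the first members by p of other lists described; Krt2 and Rn45s were chosen after their values were seen. The members and the 35 gene lists were chosen with earlier results of these data known. Alternatives were other pseudocounts, filters, scalings, variance models, a replicate block and each library left out, with the filter kept on all libraries.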

Additional observations from a re-analysis of the deposited data

Results flagged for a closer look

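Single libraries stood far from the other 3 of their group in 9 of 140 groups searched (70 genes, both groups), where chance flags about 1 in 20. In β-alanine skin, library 1 was high for Tpsg1 (0.0652 FPKM, the others at 0), Ptgs1 (48.8 FPKM) and Maob (12.5 FPKM), library 2 was low for Serpinb1a (7.37 FPKM) and high for Rgs18 (2.39 FPKM), and library 3 was low for Hs6st1 (11.7 FPKM). In PBS skin, library 3 was high for Hdc (3.8 FPKM), and library 1 was high for Lyl1 (3.42 FPKM) and Runx1 (2.79 FPKM).

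For 37 of the genes searched the change under β-alanine differed from the change after neuron ablation by the interaction term over 16 skin libraries (β-alanine minus PBS, less DTR minus Cre, log2). The term holds the same β-alanine minus PBS difference by which 25 of the 37 genes were called, so for those it is no separate support. Among proteases the difference was -6.63 for Mcpt2, -7.12 for Mcpt4, -6.55 for Cma1, -6.21 for Cpa3, -5.42 for Tpsb2, -3.66 for Ctsg and -2.01 for Tpsg1. Mcpt2 was near 0 in both Cre and DTR skin, so its value only repeats the change under β-alanine. Receptor and signalling genes followed with -2.90 for Ms4a2, -2.26 for Mrgprb1, -0.75 for Kit, -0.73 for Mrgprb2, -0.70 for Adora3, -0.59 for P2rx7, -0.35 for Syk, -1.01 for Lat2, -0.55 for Btk and -0.56 for Inpp5d. For mediator genes it was -3.41 for Cyp11a1, -1.39 for Hdc, -0.93 for Srgn, -0.57 for Ndst2 and -0.47 for Alox5, and for the transcription factor Gata2 it was -1.55.

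Outside the mast cell lists the difference was -1.76 for Xcl1, -1.13 for Egr1, -1.36 for Serpinb1a, -1.81 for Neat1, -1.15 for Clec10a, -0.73 for Clk1, -1.11 for Rgs1, -0.71 for Bcl6, -0.82 for Rgs18, -0.89 for Zfp280d, -0.74 for Rbm12b2 and -0.61 for Srek1. It was 1.45 for Sdr39u1 and 1.24 for Iigp1. Fos and Psmc3ip did not differ past the test (-0.05 and 0.03, adjusted p = 0.929 and 0.867), and both were lower in DTR than in Cre skin (5.41 against 15.7 FPKM for Fos).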

How the results depend on the processing

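The number of genes past the test rested on how the spread was estimated. It was 27, and became 46 with library weights, 130 with the spread shared by the 4 skin groups (12 higher, 118 lower; all 27 kept), 37 without the filter, 19 with a filter of 5 FPKM, and 20 to 38 when 1 library was left out. The 11 mast cell genes stayed called in each of these fits but that with 5 FPKM, where fewer genes were tested and 6 were called; they were 13 without the filter and 15 with the shared spread, which added Hdc, Lat2, Adora3 and Ndst2. Calls were lost under at least 1 alternative for Serpinb1a, Clk1, Rgs1, Rgs18, Zfp280d, Rbm12b2, Srek1 and Iigp1, and no called gene changed sign. The ratios to Cpa3 of Ms4a2, Mrgprb1 and Cyp11a1 turned to -0.28, -0.23 and -0.19 with 0.01 FPKM added, and that of Tpsg1 moved from 2.33 to 0.02; all 4 genes were near 0 in β-alanine skin, so the added value sets the ratio. The cause of the other shifts was not tested.

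The replicate block left 20 calls, the 11 mast cell genes among them, and the numbers did not pair the libraries: deviations of same-numbered libraries correlated at 0.00, -0.16, 0.37 and -0.15. PBS library 3 alone correlated best with its own number. The interaction passed for 866 genes, 523 with the replicate block, and 373 to 1493 when 1 library was left out, lowest without Cre library 4 and highest without β-alanine library 1; the mast cell genes among them were 24, and 10 with the 5 FPKM filter. Depth is unknown, so levels near 0 carry no counting limit.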

Other observations

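Several genes outside the lists named in the report were concentrated in sorted mast cells and low in β-alanine skin, although too low to be tested; they were chosen after their values were seen. Atp8b5, a phospholipid-transporting ATPase, was at 0.852 FPKM ± 0.184 (SD, n = 4) with PBS and 0.0348 ± 0.0137 with β-alanine, and 54-fold higher in sorted Cre mast cells than in Cre skin. Rprm, a cell cycle arrest gene, was at 0.258 ± 0.0385 and 0.0142 ± 0.0113 FPKM and 79.2-fold concentrated. Cd200r4, a receptor of the same family as Cd200r3, kept more, at 1.04 ± 0.147 and 0.301 ± 0.167 FPKM with 118-fold concentration. In all 3 genes every β-alanine library lay below every PBS library.

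A guanylate-binding protein gene, Gbp4, was at 0.887, 0.925, 0.971 and 0.736 FPKM with PBS and at 2.35, 1.65, 1.58 and 1.73 FPKM with β-alanine, without overlap and just short of the threshold (0.58, adjusted p = 0.0636). Defb8, a β-defensin, varied widely within both groups, from 8.54 to 136 FPKM with PBS and from 53.5 to 216 FPKM with β-alanine, and was listed at 0 in every Cre and DTR skin library.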
